A study of Mus musculus with 6 samples.

Results

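MiR-122 was described through both arms of its hairpin, mmu-miR-122-5p and mmu-miR-122-3p, chosen by name. They are 2 of the 1039 mature miRNAs in the data, of which 762 have mouse names. Small RNA of the liver was sequenced from 6 wild type ICR mice, an outbred stock, at 30 weeks of age, with 1 library per mouse. All of them ate high fat diet (HFD) throughout. After 12 weeks on it, the 3 mice of the J group received JTXK granule by gavage for 8 weeks, and the 3 mice of the M group received sterile water. As both groups carry the diet, the comparison concerns the granule on HFD and says nothing of the diet itself. Values are reads per 1000000 miRNA reads (RPM), so every miRNA is a part of a whole that sums to 1000000 in each library. From the steps of the RPM values, whole reads were recovered, with 2626353 to 4314134 miRNA reads per library.

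A miRNA is cut from a hairpin by Drosha and Dicer, and as a rule one arm is kept in an Argonaute protein as the guide strand while the other is mostly degraded. MiR-122 is the characteristic miRNA of hepatocytes. Its gene is driven by liver-enriched transcription factors such as HNF4A, the 5p arm is the guide strand, and it is best known for its part in cholesterol and fatty acid metabolism. Because this miRNA takes so large a part of a liver library, its share also sets the scale on which the RPM of every other miRNA is read.

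The miRNAs that share most of the library with mmu-miR-122-5p are shown here because they fill the same total, and a read more of one is a read less for the others. The mature sequences are from RefSeq (GRCm38.p6) and the capitals mark the seed, bases 2 to 8, which pairs with target mRNAs. Of the 5 most abundant miRNAs 4 were matched to a sequence, and mmu-miR-122-5p is given by name.
mmu-miR-21a-5p: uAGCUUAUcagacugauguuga
mmu-miR-192-5p: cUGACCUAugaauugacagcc
mmu-miR-99a-5p: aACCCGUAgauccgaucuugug
mmu-miR-148a-3p: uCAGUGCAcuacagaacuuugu
The 4 seeds differ from each other, so these abundant miRNAs belong to different seed families.

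The guide arm was the most abundant miRNA in all 6 libraries. Mmu-miR-122-5p took 20.9%, 23.3% and 23.1% of the miRNA reads in J group replicates 1, 2 and 3. In M group replicates 1, 2 and 3 it took 23.4%, 26.2% and 23.3%. Each J library was lower than each M library, but 4 of the 6 libraries lay close together and the group means were set apart by the low J group replicate 1 and the high M group replicate 2. The gap between the highest J library and the lowest M library was 0.049 percentage points. The 95% interval of that gap ran from -0.010 to 0.11 percentage points, so the 2 libraries next to it could not be ordered at this depth. M group replicates 3 and 1, 0.033 percentage points apart (-0.032 to 0.098), could not be ordered either. These intervals cover counting error only. PCR duplicates could not be removed, so the intervals may be too narrow.

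**Figure D1:**
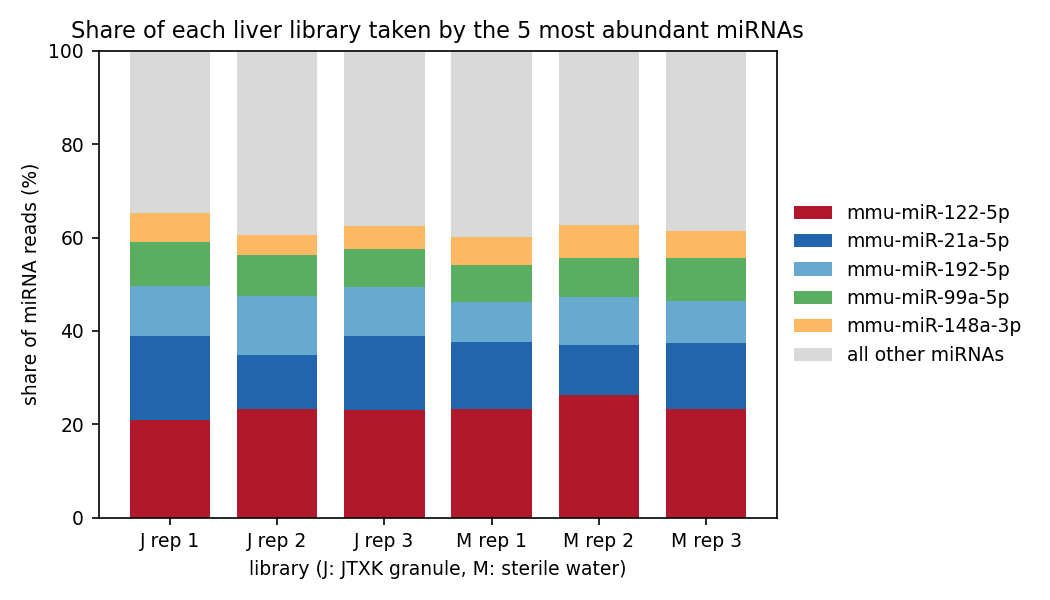
Stacked bars of the share of miRNA reads (%, vertical axis) held by the 5 most abundant miRNAs and by all other miRNAs in each of the 6 liver libraries (horizontal axis, J: JTXK granule, M: sterile water). The lowest segment, mmu-miR-122-5p, runs from 20.9% to 26.2%, and the 5 miRNAs together fill 60.1% to 65.2% of a library.

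The groups were then compared. With both arms added, miR-122 took 22.4% ± 1.35 of the reads in the J group and 24.3% ± 1.67 in the M group (SD, n = 3 each), a difference of -1.90 percentage points (p = 0.1 in an exact permutation test on both sides, which cannot go lower with 3 mice against 3). The difference was -0.94 percentage points without M group replicate 2 and -1.13 without J group replicate 1, and it lay between -2.24 and -2.40 without any other library. For the fit across all miRNAs, limma was run on log2(RPM + 1). It took in the 548 miRNAs whose mean exceeded 1 RPM in the J or the M group. A miRNA was past the thresholds when its log2 fold change exceeded 0.3 in size with p below 0.05 before adjustment. The mean of mmu-miR-122-5p was 224136 ± 13421 RPM with JTXK and 243182 ± 16722 RPM with water (SD, n = 3 each). Its log2 fold change (J minus M) was -0.12 with a 95% interval from -0.34 to 0.11 (limma, standard error 0.09, unadjusted p = 0.26, Benjamini-Hochberg adjusted p = 0.71), so it was not called. It was -0.06 without M group replicate 2 and -0.07 without J group replicate 1. Of all 548 miRNAs, 5.29% were past the thresholds. The adjusted p of limma was under 0.05 for 0.00% of them, while 29 had an unadjusted p under 0.05, and by adjusted p edgeR called 0 and DESeq2 called 2 of the miRNAs other than miR-122. Like the guide arm, 9.31% of the miRNAs had all J libraries below all M libraries.

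The place of the guide arm among the other miRNAs was read next. The median log2 fold change of all 548 miRNAs was -0.13, and the value of mmu-miR-122-5p lay 0.01 above it, at place 280 of 548 from the lowest. In RPM the guide arm thus stood near the middle of the distribution. With 1 library left out, the median ran from -0.20 (J group replicate 3) to -0.056 (J group replicate 1). The distance of mmu-miR-122-5p from the median then ran from -0.058 (M group replicate 1) to 0.068 (M group replicate 2). Another scaling moves that middle: quantile normalization put the median at 0.08, the centred log ratio at 0.05 and median-of-ratios scaling at -0.04. With the centred log ratio mmu-miR-122-5p itself had a log2 fold change of 0.06, and with median-of-ratios scaling it had -0.01, so its direction was not the same on every scale. No difference in the guide arm was called. As these are bulk samples, fewer hepatocytes and less miR-122 per hepatocyte could not be told apart even where its value was lower.

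The guide arm varied little between mice for a miRNA of its level. Over the 6 libraries its highest RPM was 1.26 times its lowest. The SD of its log2(RPM + 1) within the groups was 0.09, the second lowest of the 16 mouse miRNAs with a mean of at least 10000 RPM, whose median was 0.18. Its lead over the next miRNA varied more. In J group replicates 1, 2 and 3 it had 1.15, 1.84 and 1.45 times the RPM of the runner-up, and in M group replicates 1, 2 and 3 it had 1.64, 2.43 and 1.66 times. The runner-up was mmu-miR-192-5p in J group replicate 2 and mmu-miR-21a-5p in the other 5 libraries. The ratio to mmu-miR-21a-5p overlapped between the groups (1.54 ± 0.439 in the J group, 1.91 ± 0.450 in the M group, SD, n = 3 each, exact permutation p = 0.4).

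The passenger arm was measured with far fewer reads. Mmu-miR-122-3p was read 681, 845 and 775 times in J group replicates 1, 2 and 3. It was read 756, 620 and 852 times in M group replicates 1, 2 and 3. This gave 158, 236 and 276 RPM in the J libraries and 288, 182 and 198 RPM in the M libraries, and placed the arm between 91st and 111th in abundance. The groups overlapped, with the lowest value in J group replicate 1 and the highest in M group replicate 1. The mean was 223 ± 60.2 RPM with JTXK and 223 ± 57.1 RPM with water (SD, n = 3 each, exact permutation p = 1). The log2 fold change was below 0.01 in size, with a 95% interval from -0.70 to 0.69 (limma, standard error 0.30, adjusted p = 0.995), and a difference within that interval was not detectable with these libraries. It was 0.23 without J group replicate 1 and 0.20 without M group replicate 1. Without each of the other libraries it was negative, from -0.18 (J group replicate 3) to -0.06 (J group replicate 2).

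Part of the order of the passenger arm is within counting error. M group replicate 3 was 16.6 RPM above M group replicate 2, with a 95% interval from -2.97 to 36.1 RPM, and M group replicate 1 was 11.6 RPM above J group replicate 3 (-16.7 to 39.8 RPM). The other neighbours in the order were further apart than this counting error, which leaves out PCR duplicates. The nearest was M group replicate 2 at 23.9 RPM above J group replicate 1 (5.34 to 42.5 RPM). The highest RPM of the passenger arm was 1.82 times its lowest, and the SD of its log2(RPM + 1) within the groups was 0.38, at place 55 from the lowest of the 82 mouse miRNAs with a mean of 100 to 1000 RPM (median 0.31).

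**Figure D2:**
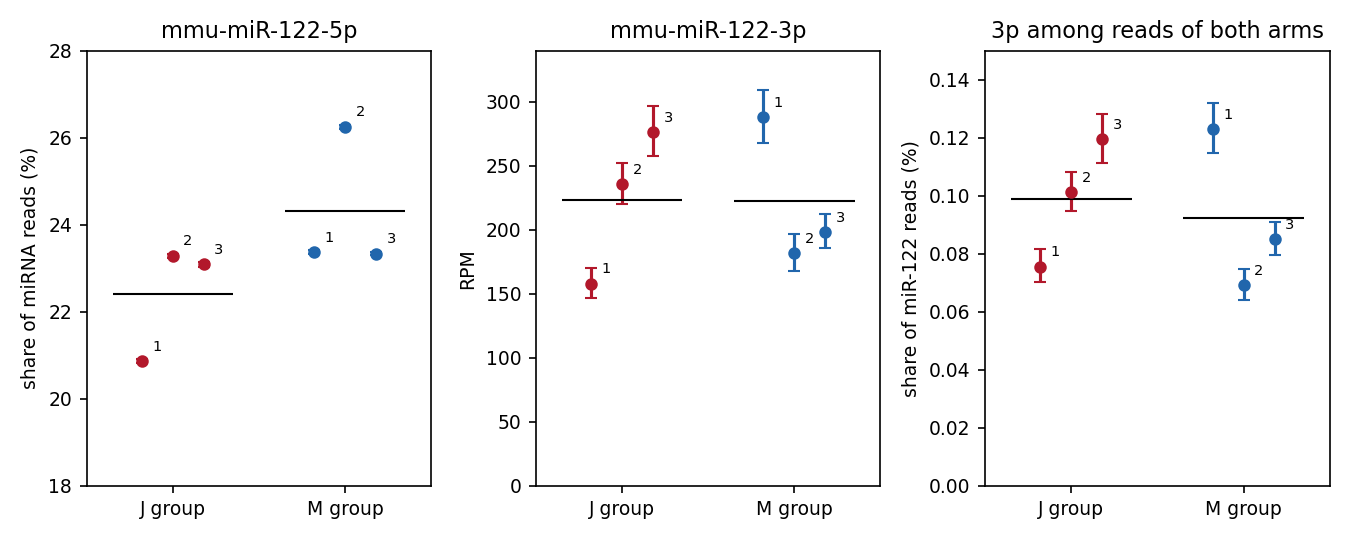
Values of each library in the J group (red) and M group (blue), with the replicate number beside each point: share of miRNA reads held by mmu-miR-122-5p (%, left, axis from 18 to 28), RPM of mmu-miR-122-3p (middle) and share of 3p reads among the reads of both arms (%, right). Bars are 95% Wilson intervals and black lines are group means. The 5p points of the groups nearly touch, while the 3p points and the arm shares of the groups overlap.

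The balance of the arms does not depend on the RPM total, since both arms come from the same hairpin and the same library. In the GENCODE annotation of GRCm38, Mir122 lies on the plus strand of chromosome 18 (65248861 to 65248926), inside an exon of the long noncoding RNA gene AC157910.3 (65244287 to 65252621). For each read of the 3p arm there were 1322, 987 and 836 reads of the 5p arm in J group replicates 1, 2 and 3. In M group replicates 1, 2 and 3 there were 812, 1444 and 1177. The 3p arm therefore made up 0.0692% to 0.123% of all miR-122 reads. It was at its lowest in M group replicate 2 (0.0640% to 0.0749%, 95% Wilson interval) and at its highest in M group replicate 1 (0.115% to 0.132%), so the arm balance spread more within the M group than it differed between the groups.

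The arm ratio was fitted for every mouse hairpin with both arms above a mean of 1 RPM in at least one group, 129 hairpins in all. The log2(5p/3p) of the miR-122 reads was 10.01 ± 0.34 in the J group and 10.12 ± 0.42 in the M group (SD, n = 3 each). The difference was -0.11 with a 95% interval from -0.52 to 0.29 (limma on the log2 ratio with 1 RPM added to each arm, standard error 0.20, adjusted p = 0.90), and it was not called. It was -0.34 without M group replicate 1 and -0.29 without J group replicate 1, while it was 0.04 without J group replicate 3 and 0.07 without M group replicate 2. Of the 129 hairpins, 9.30% passed the thresholds, and 0 had an adjusted p under 0.05 in limma against 12 with an unadjusted p under 0.05.

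MiR-122 was among the most one-sided hairpins of the liver. In 66 of the 129 hairpins the 5p arm was the more abundant and in 63 the 3p arm was. The median size of the log2 ratio was 3.61, a 12.2-fold excess of one arm, and 7 hairpins had a ratio over 10 in size. MiR-122 held place 5 in order of the 5p excess, with a mean log2 ratio of 10.06, or 1065-fold. Just above it stood miR-192, the hairpin of another abundant hepatocyte miRNA, with 10.46, and let-7g, of a family that restrains growth genes, with 10.25. Just below it came miR-191 with 9.76 and miR-10a, encoded in a Hox cluster, with 9.74. The library ranges of these 5 hairpins overlapped, from 9.66 to 10.49 for miR-122 and from 10.02 to 11.14 for miR-192, so their order is not settled beyond the spread. The order also depends on the 1 RPM added to each arm, which lowers the ratio most where an arm is rare. Without it, over all libraries, the 3p arm made up 0.0875% of the miR-191 RPM and 0.0953% of the miR-122 RPM. MiR-21a, the second most abundant hairpin, had a lower ratio of 8.57. The spread of the arm ratio between libraries was 0.38 (SD within the groups) for miR-122 and had a median of 0.39 over all hairpins.

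**Figure D3:**
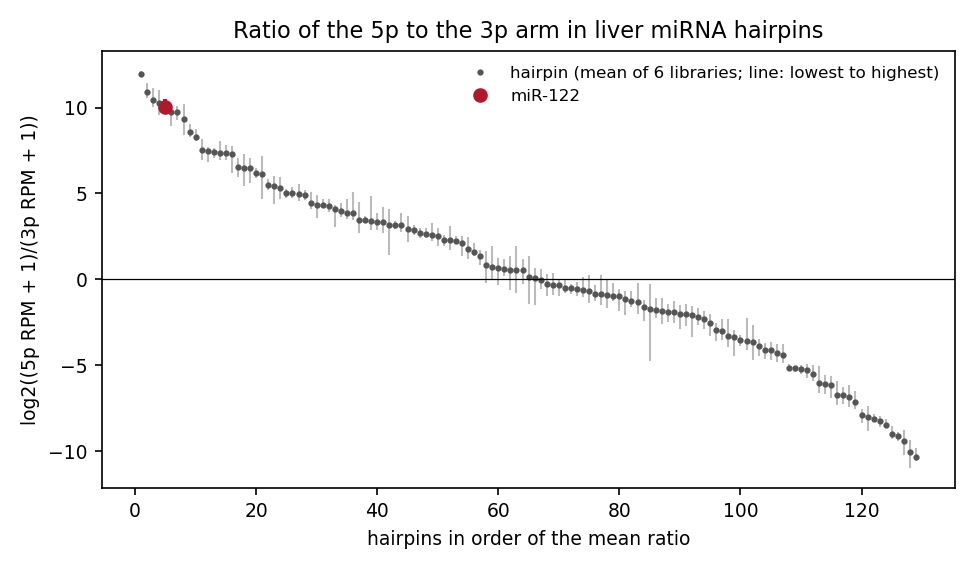
Mean log2 ratio of 5p to 3p RPM (1 RPM added to each, vertical axis) of the 129 mouse hairpins in order of that ratio (horizontal axis), with a line from the lowest to the highest of the 6 libraries. MiR-122 (red) holds place 5 from the left, at 10.06.

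The effect of the miR-122 share on all other miRNAs follows from arithmetic. When the reads of both arms leave the denominator, the RPM of every other miRNA is multiplied by 1.26, 1.30 and 1.30 in J group replicates 1, 2 and 3 and by 1.31, 1.36 and 1.30 in M group replicates 1, 2 and 3. The factors are large but nearly equal between the groups. From the mean shares of the groups, the log2 fold change (J minus M) of another miRNA shifts by -0.036. The shift was -0.018 without M group replicate 2 and -0.021 without J group replicate 1. On a linear scale, the ratio of J to M decreased by 2.46% by these mean shares when miR-122 left the total. Between single libraries the shift ran from -0.10 (J group replicate 1 against M group replicate 2) to -0.00085 (J group replicate 2 against M group replicate 3). The factor itself varied by 0.045 on the log2 scale among the J libraries and by 0.056 among the M libraries, more than the shift between the groups. At the J share found here, miR-122 would have to hold 37.0% of the M libraries to move the other miRNAs by 0.3, the threshold for a call.

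The other abundant miRNAs shift the same total in either direction. Mmu-miR-21a-5p, a miRNA raised in many injured and dividing tissues, averaged 152012 ± 33470 RPM with JTXK and 130315 ± 19314 RPM with water (SD, n = 3 each), and its removal alone would shift the others by 0.036. Mmu-miR-192-5p, a miRNA abundant in liver and gut, had 112734 ± 12286 and 92939 ± 7865 RPM and a shift of 0.032. Mmu-miR-99a-5p, with 87431 ± 6184 and 84586 ± 6010 RPM, gave a shift of 0.0045. Mmu-miR-148a-3p, which targets the LDL receptor, had 51059 ± 10798 and 62860 ± 6844 RPM and a shift of -0.018. When all 5 miRNAs left the denominator together the shift was 0.051, opposite in sign to that of miR-122 alone. Between single libraries that shift ran from -0.085 to 0.20, so its sign was not the same for every pair. The shift ran from -0.044 to 0.12 for mmu-miR-21a-5p and from 0.0052 to 0.065 for mmu-miR-192-5p. For mmu-miR-99a-5p it ran from -0.016 to 0.023, and for mmu-miR-148a-3p from -0.045 to 0.0058. None of the 5 was past the thresholds in limma on all 6 libraries.

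In the fits, the 546 other miRNAs moved by a median of -0.036. In size, that median was smaller than the standard error of the log2 fold change of each of the 546 (median standard error 0.38, smallest 0.11 for mmu-miR-99a-5p). Of the 136 with a mean of at least 100 RPM, 135 moved within 0.01 of that median. The 1 that did not, mmu-miR-298-5p, moved by -0.15. It had 1010 RPM in M group replicate 1 and at most 1.07 RPM in the other 5 libraries, and was named after its values were seen. Over all 546 the change ran from -0.19 to 0.13. The log2 fold change of 15 miRNAs changed sign, the largest of which had been 0.03 in size. The median log2 fold change of the 546 went from -0.13 to -0.17.

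**Figure D4:**
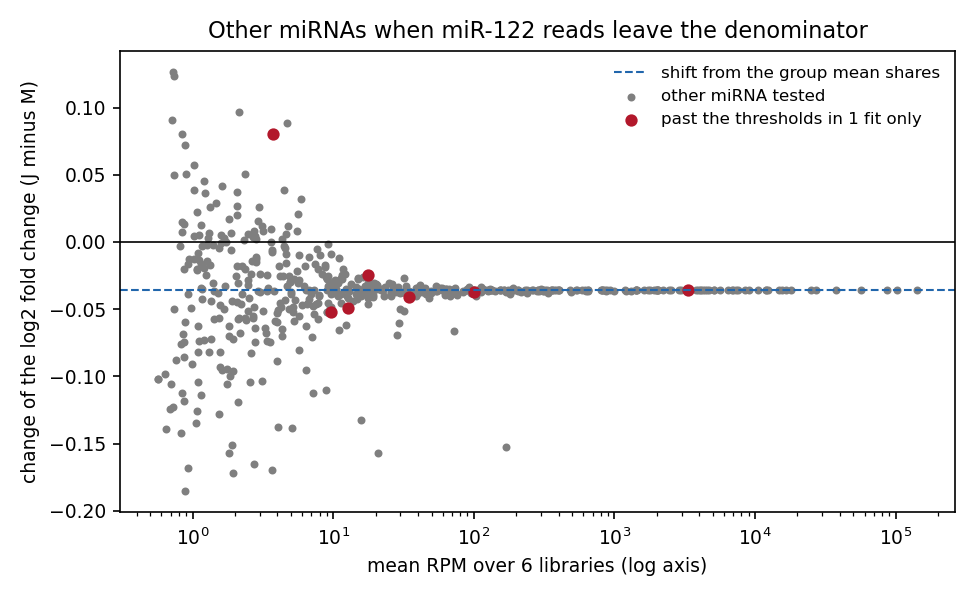
Change of the log2 fold change (J minus M, vertical axis) of the 546 other miRNAs when the reads of both miR-122 arms leave the denominator, against the mean RPM (horizontal log axis). The dashed line is the shift of -0.036 given by the mean shares. Of the 136 miRNAs with at least 100 RPM 135 lie within 0.01 of it, 1 lies at -0.15, rarer ones scatter around it, and the 7 red miRNAs are past the thresholds in one of the fits only.

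Calls near the limit moved with the denominator. With miR-122 in the total, 29 of the 546 others passed both limits, with 21 on the lower and 8 on the higher side in the J group. Without M group replicate 2 there were 46, with 39 lower and 7 higher. With miR-122 out of the total there were 32 (5.84% of the 548 tested, 0 of them with an adjusted p under 0.05), 6 higher and 26 lower, and 27 were shared. Median-of-ratios scaling gave 17 higher and 13 lower, the centred log ratio 19 and 7 and quantile normalization 20 and 11, so the split of the calls into higher and lower depends on the scale. The 5 gained were all lower in the J group: mmu-let-7i-5p, mmu-let-7i-3p, mmu-miR-212-5p, mmu-miR-362-5p and mmu-miR-423-5p. The 2 lost were both higher in it: mmu-miR-31-3p and mmu-miR-6935-3p. The log2 fold change of mmu-miR-6935-3p did not shrink but rose from 1.24 to 1.32, while its standard error rose from 0.52 to 0.57. The unadjusted p of all 7 lay between 0.042 and 0.058 in both fits.

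The most abundant of these shows how close they were. Mmu-let-7i-5p, the guide arm of a let-7 hairpin, had 2717, 2009 and 2236 RPM in J group replicates 1, 2 and 3 and 7005, 2693 and 3370 RPM in M group replicates 1, 2 and 3. M group replicate 1 was far above the others, and J group replicate 1 was above M group replicate 2. Its log2 fold change was -0.79 (limma, standard error 0.35, unadjusted p = 0.056) with miR-122 in the total and -0.83 (standard error 0.34, unadjusted p = 0.043) without it. When M group replicate 1 was left out, these became -0.39 (limma, unadjusted p = 0.10) and -0.43 (unadjusted p = 0.065). Mmu-miR-31-3p, the less studied arm of its hairpin, had 23.2, 28.2 and 15.7 RPM in the J libraries and 12.6, 11.7 and 14.0 RPM in the M libraries. Its log2 fold change was 0.73 (unadjusted p = 0.043) with miR-122 and 0.70 (unadjusted p = 0.050) without it. Without M group replicate 1 it was 0.72 (limma, unadjusted p = 0.068) and 0.69 (unadjusted p = 0.081), past the thresholds in neither fit. Of the miRNAs whose call changed, only mmu-miR-6935-3p was past them without that library. It was so in both fits, with 1.48 (limma, unadjusted p = 0.030) and 1.59 (unadjusted p = 0.033).

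M group replicate 1 stood apart from the other libraries, with a Pearson correlation of log2(RPM + 1) of 0.931 to 0.941 with them against 0.973 to 0.989 among the other 5. It also had the fewest miRNA reads, 2626353, next to 2805177 in J group replicate 3. Its label is MX1_3, while the other libraries are labelled GJ2_2, GJ2_4, GJ2_5, MX2_2 and MX2_3. What the labels stand for is not stated, and a cause of the difference was not tested. M group replicate 1 had the highest value of all libraries for each of the 5 gained miRNAs. Without that library, 34 of 519 miRNAs (6.55%) were past the thresholds with miR-122 in the total and 33 without it, of which 33 were shared. The 1 lost, mmu-miR-712-5p, was named after its values were seen, with a log2 fold change of 1.01 in both fits and an unadjusted p of 0.049 and 0.061. The share of miR-122 itself was not unusual in this library (23.4%), while its passenger arm was the highest of the 6.

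The other hepatocyte miRNAs pointed in both directions. A list of 12 miRNAs that are abundant or enriched in hepatocytes made up 18.3% to 22.8% of a library, from 206151 to 228336 RPM in the J group and from 182698 to 218655 RPM in the M group. In the J group 5 had a higher and 7 a lower mean log2 value, 0 of the 12 were past the thresholds, beside 323 of 548 lower and 5.29% past the thresholds over all miRNAs tested. The median log2 fold change of the list was -0.08, beside -0.13 over all 548. The sign of that median turned under other scalings and without single libraries.

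Within the list, all J libraries lay above all M libraries for mmu-miR-192-5p (log2 fold change 0.28, limma adjusted p = 0.71) and for mmu-miR-101b-3p, with 7992 ± 256 against 6706 ± 1014 RPM (0.26). Over all 548 miRNAs, 13.5% had all J libraries on one side of all M libraries. Mmu-miR-194-5p, which is transcribed with miR-192, had 15606 ± 2192 against 13847 ± 1418 RPM (0.17), and mmu-miR-101a-3p had 4452 ± 190 against 3859 ± 471 RPM (0.21). Mmu-miR-22-3p, with 18895 ± 4422 against 14308 ± 4364 RPM, had a log2 fold change of 0.42. Mmu-miR-378a-3p, from an intron of Ppargc1b, had 4707 ± 1104 against 4662 ± 680 RPM, a log2 fold change of less than 0.01 in size. All of these overlapped between the groups except mmu-miR-192-5p and mmu-miR-101b-3p.

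On the lower side of the list, mmu-miR-148a-3p had a log2 fold change of -0.32 and the rest were less abundant. Mmu-miR-802-5p, a hepatic miRNA raised in obesity, had 555 ± 205 against 614 ± 222 RPM (-0.15), and mmu-miR-365-3p had 114 ± 16.4 against 157 ± 96.4 RPM (-0.27). Without M group replicate 1, mmu-miR-365-3p was the 1 member of the list past the thresholds, with a log2 fold change of -0.79 (limma, unadjusted p = 0.030), beside 6.55% of the 519 miRNAs tested without that library, and 6 members were higher and 6 lower. Mmu-miR-215-5p, which shares its seed with miR-192, had 30.7 ± 12.0 against 45.3 ± 16.0 RPM (-0.57). Mmu-miR-33-5p, from an intron of the cholesterol regulator Srebf2, had 7.81 ± 4.57 against 10.3 ± 2.66 RPM (-0.52), and mmu-miR-193b-3p had 2.13 ± 0.890 against 2.93 ± 2.11 RPM (-0.24). In each of them the J and M libraries overlapped (SD, n = 3 per group throughout).

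Markers of other liver cells were read beside these values. These lists were chosen with earlier results of these data known. Some of their members are among the miRNAs that the paper lists as downregulated in the same libraries. A count of called members is therefore a description and no independent test. Over all 548 miRNAs, 323 were lower in the J group and 5.29% were past the thresholds. The 7 miRNAs listed for blood-derived immune cells summed to 988 to 1370 RPM in the J libraries and 1768 to 6579 RPM in the M libraries, all 7 were lower in the J group and 2 were past the thresholds, with none at 0 in any library. The smallest adjusted p among the 7 was 0.55 (limma). M group replicate 1 held the 6579 RPM. Without that library 6 of the 7 were lower and the same 2, mmu-miR-146a-5p and mmu-miR-342-3p, named after their values were seen, were past the thresholds, beside 57.4% lower and 6.55% past the thresholds of the 519 miRNAs tested without it. Their most abundant member, mmu-miR-142a-5p, had 525, 598 and 761 RPM in the J libraries and 3709, 683 and 961 RPM in M group replicates 1, 2 and 3, so that M group replicate 1 stood far above the rest. Of 4 stromal miRNAs all were lower in the J group and 3 were past the thresholds, with sums of 12582 to 16890 and 16765 to 25242 RPM, of which mmu-miR-143-3p was the largest part (10128 ± 1798 and 13772 ± 4360 RPM). The stromal sums overlapped between the groups, and the smallest adjusted p of the 4 was 0.43 (limma). Without M group replicate 1 there were 2 stromal miRNAs past the thresholds, beside the same 6.55%. The lists for endothelial cells (9893 to 15118 RPM, led by mmu-miR-126b-3p), red blood cells (2581 to 9886 RPM, led by mmu-miR-144-3p) and bile duct epithelium (950 to 4298 RPM, led by mmu-miR-200b-3p) had sums that overlapped between the groups and 0 members past the thresholds, with or without that library. All 5 bile duct miRNAs were lower in the J group, with or without that library. Of the 2 endothelial miRNAs 2 were higher with that library and 1 without it. Of the 3 red blood cell miRNAs 1 was higher and 2 were lower in both cases. Each of the list sums is small beside miR-122, and the part of other cell types in the miR-122 share was not tested.

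The arms of miR-122 were little alike across the 6 mice, with a Pearson r of 0.14 and a Spearman rho of 0.20 for their log2(RPM + 1). The likeness of other miRNAs was described in the same way over the 6 libraries, against the 137 other mouse miRNAs with a mean of at least 100 RPM. All share one total per library, and the highest values among so many are high by selection. Most like the guide arm were mmu-miR-26a-5p (r = 0.94, rho = 0.49), which is encoded in an intron of a Ctdsp gene, mmu-miR-351-5p (r = 0.92, rho = 0.83) and mmu-let-7b-5p (r = 0.88, rho = 0.94). Mmu-miR-26a-5p had 12075, 16267 and 15831 RPM in J group replicates 1, 2 and 3 and 14303, 18801 and 15672 RPM in M group replicates 1, 2 and 3. It was lowest in J group replicate 1 and highest in M group replicate 2, as the guide arm was. Least like it were mmu-miR-340-5p (r = -0.92), mmu-miR-21a-5p (r = -0.86) and mmu-miR-30a-3p (r = -0.77).

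The likeness to the guide arm was little changed when miR-122 left the denominator. The r became 0.95 for mmu-miR-26a-5p, 0.93 for mmu-miR-351-5p, 0.91 for mmu-let-7b-5p, -0.83 for mmu-miR-340-5p, -0.82 for mmu-miR-21a-5p and -0.68 for mmu-miR-30a-3p. Mmu-miR-21a-5p had 181451 RPM in J group replicate 1, where miR-122-5p was lowest, and 108028 RPM in M group replicate 2, where it was highest. Most like the passenger arm were mmu-miR-24-2-5p (r = 0.89, rho = 0.94), mmu-miR-15a-5p (r = 0.86, rho = 0.94) and mmu-miR-423-3p (r = 0.84, rho = 0.83). Least like it were mmu-miR-194-2-3p (r = -0.84), mmu-miR-99a-5p (r = -0.81) and mmu-miR-30c-2-3p (r = -0.71). The lists of the arms had no miRNA in common.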

How the data were processed

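The authors filtered the small RNA reads, searched unique reads against Rfam and miRBase, and deposited RPM, each miRNA's reads over all miRNA reads of that library, with libraries kept apart. The submitters' processing notes name mm9, and the aligner and mismatch rule are not given in the sources used here. All values above 0 (100%) were whole multiples of what 1 read is worth, within 0.01 reads, so whole reads were recovered. They were used for Wilson intervals, normal 95% intervals of differences between libraries, edgeR 4.0.16 and DESeq2 1.42.0. The J and M groups were compared by limma 3.58.1 in R 4.3.3 (moderated by eBayes with a trend on mean abundance, both directions tested) on log2(RPM + 1), with Benjamini-Hochberg adjustment over all 548 miRNAs, and shares by an exact permutation test. A fold change on this scale understates that of rare miRNAs. The methods state the thresholds and the filter but no test for the sequencing data. A floor of 3 reads equals 0.695 to 1.14 RPM, far below both arms. Named were both arms, the 5 most abundant miRNAs, the hepatocyte list, the leading member of each other cell type list, miRNAs whose call differed without miR-122, the 3 most and 3 least alike to each arm, and hairpins next to miR-122 or most abundant. A few further miRNAs are marked where they appear as named after their values were seen. Members and lists were chosen with earlier results of these data known. Listed mmu-miR-199a-3p, mmu-miR-126a-5p and mmu-miR-486a-5p were not analysed here. Alternatives covered the added RPM, filter, scaling, denominator, test, replicate block and each library left out. The fits were tested on simulated data. Python 3.11.15, numpy 2.4.6, pandas 2.3.3, scipy 1.17.1 and matplotlib 3.10.9 were used.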

Additional observations from a re-analysis of the deposited data

How the results depend on the processing

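Both arms stayed short of the thresholds under every alternative that gave them a value. The log2 fold change of mmu-miR-122-5p stayed below 0 except with the centred log ratio (0.060), and without a library it ranged from -0.15 to -0.06. Quantile normalization gives the top miRNA the same value in each library and so gave no value for it. Mmu-miR-122-3p, near 0 as reported, was above 0 with median-of-ratios scaling (0.10), quantile normalization (0.34), the centred log ratio (0.17), the 5 most abundant miRNAs out of the denominator (0.048), edgeR (0.10) and DESeq2 (0.10), and without a library it ranged from -0.18 to 0.23. The arm ratio difference ranged from -0.34 to 0.074 without a library, and the share difference from -2.40 to -0.94 percentage points. The shift of the other miRNAs was 0.051 when the 5 most abundant left in place of miR-122, and ranged from -0.045 to -0.018 without a library. The count of other miRNAs past the thresholds was 45 with edgeR (18 higher, 27 lower) and 21 to 46 without a library, with 46 without M group replicate 2 (7 higher, 39 lower), and for these the cause was not tested. DESeq2 gave 2 miRNAs an adjusted p under 0.05, neither of them an arm of miR-122. The hepatocyte list median was 0.16 with quantile normalization, 0.10 with the centred log ratio and -0.077 to 0.14 without a library. The counts without both miR-122 and M group replicate 1, and those of the cell type lists without that library, were chosen after seeing the data. Libraries of the same number did not deviate together (r = 0.045, 0.058 and -0.0059), so the numbers are not known to pair the mice. With the replicate block, 27 other miRNAs were past the thresholds, mmu-miR-122-5p stayed at -0.12 (adjusted p = 0.72, limma), and the paired exact permutation p of the share was 0.25, the smallest that 3 pairs allow. By counting error alone, depth left J group replicate 2 and M group replicate 3 unordered in the guide arm's share.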
